A study of Solanum lycopersicum with 31 samples.

Results

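Leaf RNA of wild-type tomato plants (Solanum lycopersicum, cultivar Moneymaker) grown beneath a PTB7-Th:IEICO-4F solar cell filter was compared with leaf RNA of plants grown beneath a spectrally neutral control filter, with the photon flux at the plants held equal. The libraries were taken by their titles: 4 from the filter group, called PI_PC, and 4 from the control group, called C_PC, so 8 of the 31 libraries of the series. Each library is labelled as the leaf of an individual plant, and all plants grew in a chamber under ceramic metal halide and incandescent lamps. The series further holds FTAZ:IT-M (FI_PC) and FTAZ:PCBM (FP_PC) filters at equal flux, with 4 libraries each, and the same 4 filters in an experiment at equal height (HC), with 4 libraries each except 3 for PI_HC. Whether the chamber, the bench position or the day of sampling differed between the groups is not given in the sources used here.

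An organic solar cell pairs a light-absorbing polymer donor with an acceptor, and light that the blend does not absorb reaches the leaf. PTB7-Th is a red-absorbing polymer and IEICO-4F a near-infrared-absorbing acceptor, so this blend takes up long wavelengths, which plants read with phytochromes. Leaf photosynthesis genes, the circadian clock and the chaperone system that guards proteins against heat are each known to respond to light and temperature.

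The labels of 2 of the 8 libraries disagree with the block code in their identifiers. The library labelled C_PC 4 carries the code that is otherwise held by PI_PC 1 to 3, and the library labelled PI_PC 4 carries the code otherwise held by FP_PC 1 to 3. Each result is therefore given under the labels (all 31 libraries in the fit) and without these 2 libraries (29 libraries in the fit, 3 against 3 compared), and no library was moved to another group. The library labelled FP_PC 4 has a conflict of the same kind and enters only the shared spread and the comparison with FP_PC. The 8 libraries held 14572814 to 15094631 counts and 18749 to 19294 genes with a count, so that a floor of 3 counts corresponds to 0.199 to 0.206 CPM, the count scaled to the library's total. Genes of the organelle genomes took 0.100% to 0.144% of the counts, and between 6.19% and 10.2% fell on the 10 most abundant genes.

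Leaf identity was checked on marker genes. The 7 mesophyll markers came from a list set up for small chains of the carbon-fixing enzyme Rubisco, Rubisco activase and carbonic anhydrase. They summed to 38675, 35189 and 41622 CPM in C_PC 1 to 3, 17602 CPM in the library labelled C_PC 4, 29024, 16897 and 12819.8 CPM in PI_PC 1 to 3 and 40970.5 CPM in the library labelled PI_PC 4. The sum was lowest in PI_PC 2, PI_PC 3 and the library labelled C_PC 4, and 0 of the 7 markers lacked counts in all 8 libraries. Markers of root endodermis summed to 0.659 to 2.56 CPM. Summed phloem markers lay between 415 and 705 CPM, xylem markers between 169.9 and 309 CPM, trichome terpenoid markers between 15.5 and 46.7 CPM, guard cell markers between 24.7 and 57.8 CPM and shoot meristem markers between 253 and 335 CPM. In whole leaves, fewer cells of a type and less RNA per cell cannot be told apart.

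The place of each library was described on the 4646 genes that passed the threshold without the 2 libraries, on a scale of log2 CPM where 0 is the mean of C_PC 1 to 3 and 1 the mean of PI_PC 1 to 3. The library labelled C_PC 4 had a median position of 1.15 and was nearer to the PI_PC mean in 4331 of these genes (93.2%). The library labelled PI_PC 4 had a median position of 0.185 and was nearer to the PI_PC mean in 1277 genes (27.5%). Of the libraries that chose the genes, PI_PC 1 stood at 0.522, PI_PC 2 at 1.14 and PI_PC 3 at 1.31, so the plants beneath the filter were themselves spread out. The other 23 libraries of the series had medians from 0.094 to 0.494.

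**Figure D1:**
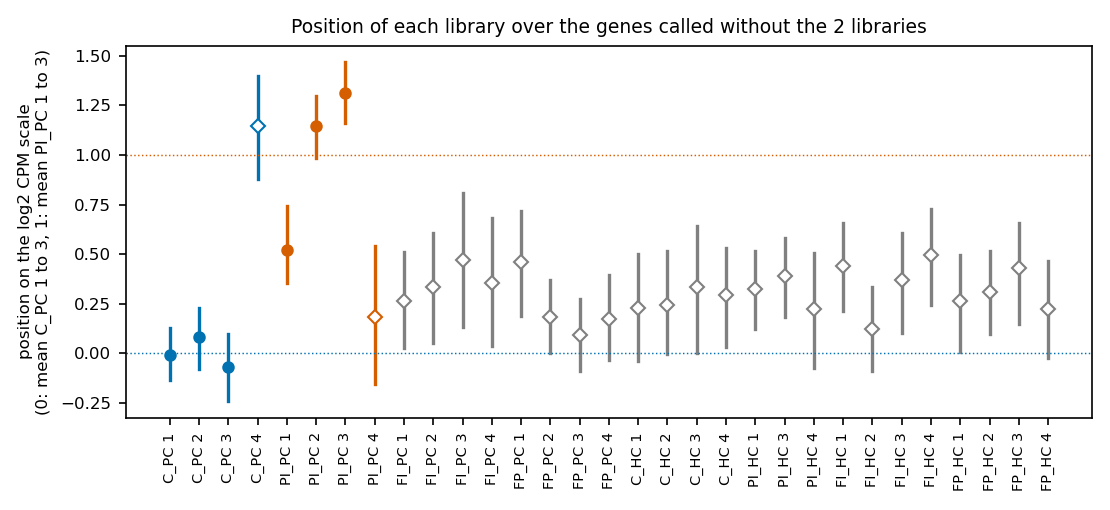
Position of each of the 31 libraries (x axis) on the log2 CPM scale from the mean of C_PC 1 to 3 (0) to the mean of PI_PC 1 to 3 (1), over the 4646 genes called without the 2 libraries labelled replicate 4. Points are medians and bars the quartiles over genes, filled points are the 6 libraries that chose the genes, and the library labelled C_PC 4 lies at 1.15 while the library labelled PI_PC 4 lies at 0.185.

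Under the labels, 50 of 16198 genes differed between PI_PC and C_PC at an edgeR adjusted p under 0.05, which is 0.309% of the genes tested. Of these, 21 were higher (0.130%) and 29 lower (0.179%), while 2347 genes had an unadjusted p under 0.05. Without the 2 libraries, 4646 of 16121 genes passed (28.8%), 2138 higher (13.3%) and 2508 lower (15.6%). All 50 genes called under the labels were among the 4646 and in the same direction, 0.310% of the genes tested there (0.130% higher and 0.180% lower) and 1.08% of the second set of calls. The 2 results share 6 of their 8 libraries and are not independent. In the 6 libraries without the doubtful 2, the groups did not overlap for 2845 higher (17.6%) and 2794 lower genes (17.3%), and under the labels for 261 higher (1.61%) and 198 lower genes (1.22%). Of the 50 genes, 49 did not overlap among the 6 libraries and 25 did not among the 8. The 50 genes were chosen by their difference in these same libraries, which favours groups that do not overlap, so this adds no support.

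Both counts depended on the libraries that set the spread. A fit of the 8 libraries alone called 0 genes by edgeR, with 838 at an unadjusted p under 0.05, and DESeq2 called 345 with all 31 libraries. A fit of the 6 libraries alone called 698 of 14875 genes (341 higher and 357 lower), among them 33 of the 49 shared genes that it tested. Under the labels the count was 0 without C_PC 1 or without C_PC 2, 7 without C_PC 3, 2395 without C_PC 4, 199 without PI_PC 1, 23 without PI_PC 2, 2 without PI_PC 3 and 754 without PI_PC 4. In the comparison of 3 against 3, leaving out PI_PC 3 gave 2294 genes and leaving out PI_PC 2 gave 3049.

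Heat shock chaperones were prominent among the rises that held in both fits. Small heat shock proteins keep unfolding proteins soluble without using ATP, and HSP70 with its co-chaperones then refolds them. Of the 30 genes described as small heat shock proteins, 27 passed the low-count filter under the labels, 9 of these rose and 0 fell. Without the 2 libraries 26 were tested, 16 rose (61.5%, against 13.3% over all genes tested) and 0 fell. The median log2 fold change of the tested members was 1.35 under the labels and 1.52 without the 2 libraries, against 0.0086 and 0.023 over all genes tested. In the fit of the 6 libraries alone 10 of 24 rose, against 341 of 14875 over all genes tested. Reads that fit several near-identical members cannot be assigned to one of them, so single members of this family are uncertain.

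The 9 members that rose in both fits belong to the cytosolic classes I and II and to class IV. LOC101254946, a 22.7 kDa class IV protein (chromosome 1, 91487740 to 91488588, plus strand, build SL3.0), had 14.8, 8.62 and 22.7 CPM in C_PC 1 to 3 and 29.4 CPM in the library labelled C_PC 4. In the filter group there were 51.8, 79.4 and 235 CPM in PI_PC 1 to 3 and 148 CPM in the library labelled PI_PC 4. All 4 PI_PC libraries lay above all 4 C_PC libraries, PI_PC 3 was the highest, and the library labelled C_PC 4 was the highest of its group. Its mean was 18.9 ± 9.09 CPM in C_PC and 129 ± 81.8 CPM in PI_PC (SD, n = 4 each). The log2 fold change was 2.76 ± 0.492 (SE), edgeR adjusted p = 0.0192 under the labels, and 2.98 ± 0.561 (SE), edgeR adjusted p = 0.000441 without the 2 libraries.

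LOC544282, the class II protein Le-HSP17.6 (chromosome 8, 51172529 to 51173265, minus strand), had 15.7, 8.99 and 18.05 CPM in C_PC 1 to 3, 27.4 CPM in the library labelled C_PC 4, 42.5, 73.5 and 164 CPM in PI_PC 1 to 3 and 139.7 CPM in the library labelled PI_PC 4. The groups of 4 did not overlap, and the log2 fold change was 2.58 ± 0.505 (SE), edgeR adjusted p = 0.0269 under the labels. LOC101268307, an 18.2 kDa class I protein (chromosome 9, 7427527 to 7428373, plus strand), had 53.7, 30.8 and 57.2 CPM in C_PC 1 to 3 and 87.9 CPM in the library labelled C_PC 4. Under the solar cell filter it had 142, 134 and 407 CPM in PI_PC 1 to 3 and 254 CPM in the library labelled PI_PC 4. Again all PI_PC libraries were above all C_PC libraries. Its log2 fold change was 2.03 ± 0.341 (SE), edgeR adjusted p = 0.0129 under the labels, and 2.26 ± 0.380 (SE), edgeR adjusted p = 0.000163 without the 2 libraries.

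HSP17.8, a class I protein (chromosome 6, 47688145 to 47688933, minus strand), had 73.5, 68.9 and 83.7 CPM in C_PC 1 to 3, 119.6 CPM in the library labelled C_PC 4, 119, 187 and 254 CPM in PI_PC 1 to 3 and 162 CPM in the library labelled PI_PC 4. The library labelled C_PC 4 lay just above PI_PC 1, so the groups of 4 overlapped. On the log2 scale the fold change was 1.06 ± 0.220 (SE), edgeR adjusted p = 0.0299 under the labels. HSP17.4, in class II (chromosome 8, 50976534 to 50977196, minus strand), had 5.96, 5.72 and 6.21 CPM in C_PC 1 to 3 and 16.1 CPM in the library labelled C_PC 4. Plants beneath the filter had 12.8, 30.3 and 43.3 CPM in PI_PC 1 to 3 and 38.9 CPM in the library labelled PI_PC 4. Here the library labelled C_PC 4 stood apart from the other controls and above PI_PC 1, and the log2 fold change was 1.87 ± 0.412 (SE), edgeR adjusted p = 0.0421.

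LOC101256272, the second class IV protein (chromosome 3, 65462620 to 65463477, plus strand), was close to the floor in the controls, with 0.453, 0.0743 and 0.511 CPM in C_PC 1 to 3, 2.86 CPM in the library labelled C_PC 4, 3.89, 5.25 and 29.1 CPM in PI_PC 1 to 3 and 15.7 CPM in the library labelled PI_PC 4. It rose in both fits (edgeR adjusted p = 0.0229 and 5.38e-05), and its fold is not given because C_PC 2 held less than the floor of 3 counts. The other 3 members, Hsp20.0, LOC543848 and LOC101268020, rose in both fits with log2 fold changes of 1.45, 1.80 and 1.44 under the labels (edgeR adjusted p = 0.0284, 0.0129 and 0.0192). The summed level of the whole list was 2197, 1892 and 2069 CPM in C_PC 1 to 3 and 2798 CPM in the library labelled C_PC 4. Beneath the filter the values were 2935, 3030.01 and 4156 CPM in PI_PC 1 to 3 and 2802 CPM in the library labelled PI_PC 4. PI_PC 3 had the highest sum, and the 2 libraries labelled replicate 4 had nearly the same one, between C_PC 1 to 3 and PI_PC 1 to 3.

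Larger chaperones and co-chaperones rose in smaller numbers. Of 21 tested HSP70, HSP90 and HSP100 genes, 2 rose in both fits and 0 fell, and 10 rose without the 2 libraries. The 10 were 47.6% of the tested members, against 13.3% higher over all genes tested. HSP70, an ATP-driven refolding chaperone (chromosome 11, 10036518 to 10040967, plus strand), had 38.7, 33.4 and 40.6 CPM in C_PC 1 to 3, 103 CPM in the library labelled C_PC 4, 95.4, 189.6 and 362 CPM in PI_PC 1 to 3 and 112 CPM in the library labelled PI_PC 4. For this gene the library labelled C_PC 4 was above PI_PC 1 and far above the other controls, and PI_PC 3 was the highest of all. This gave a log2 fold change of 1.81 ± 0.390 (SE), edgeR adjusted p = 0.0358 under the labels, and 2.51 ± 0.390 (SE), edgeR adjusted p = 8.64e-05 without the 2 libraries. LOC101255185, described as heat shock 70 kDa protein 5 (chromosome 3, 68208673 to 68210989, minus strand), had 7.85, 8.55 and 10.1 CPM in C_PC 1 to 3 and 7.69 CPM in the library labelled C_PC 4. In the filter group there were 13.5, 15.997 and 20.1 CPM in PI_PC 1 to 3 and 13.5 CPM in the library labelled PI_PC 4. Its groups of 4 did not overlap and it rose 1.85-fold under the labels (edgeR adjusted p = 0.0284).

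LOC101246665, a BAG family regulator 6 gene whose family binds HSP70 (chromosome 1, 86503726 to 86508889, plus strand), had 229.7, 180.2 and 267 CPM in C_PC 1 to 3, 462 CPM in the library labelled C_PC 4, 679, 1027 and 2234 CPM in PI_PC 1 to 3 and 1090.2 CPM in the library labelled PI_PC 4. No PI_PC library overlapped a control, and the level rose 4.42-fold under the labels. The log2 fold change was 2.14 ± 0.458 (SE), edgeR adjusted p = 0.0358 under the labels, and 2.53 ± 0.521 (SE), edgeR adjusted p = 0.000854 without the 2 libraries. LOC101253780, a DnaJ co-chaperone of HSP70, rose in both fits too (edgeR adjusted p = 0.0433 and 0.0151), at a low level of 0.219 to 0.528 CPM in C_PC and 0.817 to 1.39 CPM in PI_PC. The DnaJ and BAG list as a whole went both ways without the 2 libraries, with 10 of 63 tested members higher and 7 lower, and its median changed sign between the fits. Its shares of 15.9% higher and 11.1% lower were near the 13.3% and 15.6% of all genes tested.

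**Figure D2:**
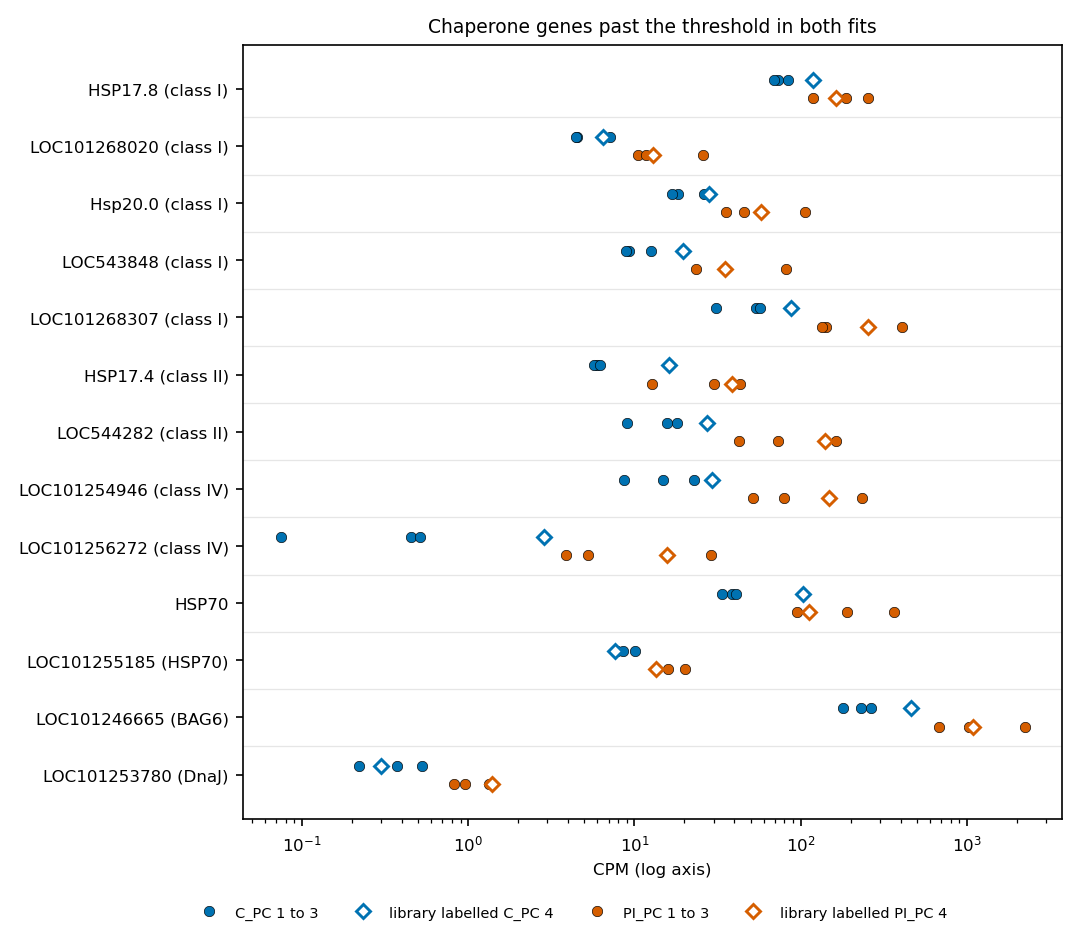
Levels (CPM, log axis) of the 13 chaperone genes past the threshold in both fits, for each of the 8 libraries. Circles are C_PC 1 to 3 and PI_PC 1 to 3 and open diamonds the libraries labelled C_PC 4 and PI_PC 4. The C_PC 4 diamond lies to the right of its own circles for most genes, and the PI_PC 4 diamond lies among the PI_PC circles for all but LOC101253780, where it is the highest.

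Over the 16 small heat shock genes called without the 2 libraries, the library labelled C_PC 4 had a median position of 0.51, between the groups, and the library labelled PI_PC 4 had 0.98, at the PI_PC mean. Heat stress transcription factors, a family that regulates chaperone genes, gave 0 calls under the labels. Without the 2 libraries 5 of 17 rose, among them HSTF24 (log2 fold change 0.90, edgeR adjusted p = 0.000246), and 2 fell, the B-2b gene LOC101267632 and the C-1 gene LOC101248645. The 5 and 2 were 29.4% higher and 11.8% lower, against 13.3% and 15.6% over all genes tested.

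Genes of the sterol pathway and of steroidal glycoalkaloid synthesis were among the falls that held in both fits. The mevalonate pathway supplies sterol precursors, and tomato leaves turn cholesterol into the bitter defence compound tomatine. GAME1 adds the first sugar, a galactose, to tomatidine on this route (chromosome 7, 57445188 to 57446901, plus strand). It had 332, 562 and 521 CPM in C_PC 1 to 3 and 35.9 CPM in the library labelled C_PC 4. Under the solar cell filter it had 77.3, 74.8 and 51.7 CPM in PI_PC 1 to 3 and 94.8 CPM in the library labelled PI_PC 4. Here the library labelled C_PC 4 was lower than every PI_PC library, so the groups of 4 overlapped, while C_PC 1 to 3 stood well above all PI_PC libraries. The mean was 472 ± 122 CPM in C_PC 1 to 3 and 67.9 ± 14.1 CPM in PI_PC 1 to 3 (SD, n = 3 each). Its log2 fold change was -2.28 ± 0.506 (SE), edgeR adjusted p = 0.0433 under the labels, and -2.80 ± 0.419 (SE), edgeR adjusted p = 6.39e-05 without the 2 libraries.

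LOC101244831, a delta(24)-sterol reductase-like gene whose family reduces the sterol side chain (chromosome 2, 39925406 to 39928598, minus strand), had 19.2, 25.9 and 26.96 CPM in C_PC 1 to 3, 2.98 CPM in the library labelled C_PC 4, 4.83, 4.78 and 2.74 CPM in PI_PC 1 to 3 and 5.93 CPM in the library labelled PI_PC 4. Its order of libraries was like that of GAME1, with the library labelled C_PC 4 inside the PI_PC range. On the log2 scale the fold change was -2.04 ± 0.414 (SE), edgeR adjusted p = 0.0284 under the labels, and -2.55 ± 0.326 (SE), edgeR adjusted p = 1.68e-05 without the 2 libraries. This gene has 2 annotated transcripts, so part of its reads is lost in the counting.

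LOC101249394, a hydroxymethylglutaryl-CoA synthase at the entry of the mevalonate pathway (chromosome 8, 63611252 to 63615621, minus strand), had 171, 227 and 238 CPM in C_PC 1 to 3 and 79.5 CPM in the library labelled C_PC 4. Plants beneath the filter had 67.8, 77.2 and 70.99 CPM in PI_PC 1 to 3 and 53.6 CPM in the library labelled PI_PC 4. Here the groups of 4 did not overlap, although the library labelled C_PC 4 was only just above PI_PC 2. This gave a log2 fold change of -1.41 ± 0.307 (SE), edgeR adjusted p = 0.0389 under the labels, and -1.56 ± 0.304 (SE), edgeR adjusted p = 0.000576 without the 2 libraries. Over the fixed list of mevalonate and sterol enzymes, 2 of 33 tested members fell and 0 rose under the labels, and 14 fell and 4 rose without the 2 libraries. The 14 and 4 were 42.4% lower and 12.1% higher, against 15.6% and 13.3% over all genes tested. The median log2 fold change of that list was -0.18 and -0.29.

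LOC101264777, a delta(7)-sterol-C5(6)-desaturase that introduces a ring double bond (chromosome 2, 49563320 to 49565782, plus strand), missed the threshold under the labels. It had 616, 838 and 827 CPM in C_PC 1 to 3, 54.2 CPM in the library labelled C_PC 4, 137, 84.3 and 62.8 CPM in PI_PC 1 to 3 and 201 CPM in the library labelled PI_PC 4. The edgeR adjusted p was 0.0599 under the labels and 6.93e-05 without the 2 libraries, where the log2 fold change was -3.01. The mevalonate kinase LOC101261961 likewise passed only without the 2 libraries (log2 fold change -0.91, edgeR adjusted p = 0.000211, and 0.0672 under the labels). Among members that rose there was HMG2, a hydroxymethylglutaryl-CoA reductase, with 3.55, 5.95 and 4.38 CPM in C_PC 1 to 3 and 40.1 CPM in the library labelled C_PC 4. Beneath the filter the values were 5.63, 27.9 and 12.2 CPM in PI_PC 1 to 3 and 3.0005 CPM in the library labelled PI_PC 4. It was high in PI_PC 2 and in the library labelled C_PC 4, and its log2 fold change was 1.72 ± 0.378 (SE), edgeR adjusted p = 0.00151 without the 2 libraries.

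LOC101268254, described as a zeatin O-glucosyltransferase, an enzyme type that stores the hormone cytokinin as a glucoside (chromosome 11, 52737812 to 52739458, plus strand), had 243, 357 and 301 CPM in C_PC 1 to 3, 32.3 CPM in the library labelled C_PC 4, 58.8, 60.2 and 49.7 CPM in PI_PC 1 to 3 and 65.5 CPM in the library labelled PI_PC 4. As with GAME1, the library labelled C_PC 4 was the lowest of all 8. The log2 fold change was -1.995 ± 0.431 (SE), edgeR adjusted p = 0.0358 under the labels, and -2.42 ± 0.344 (SE), edgeR adjusted p = 4.17e-05 without the 2 libraries. LOC101262985, a geraniol 8-hydroxylase of terpenoid metabolism, fell with the smallest p of the 20 genes named by size under the labels. It had 62.04, 54.4 and 48.96 CPM in C_PC 1 to 3 and 26.99 CPM in the library labelled C_PC 4. In the filter group there were 16.8, 27.9 and 21.5 CPM in PI_PC 1 to 3 and 18.8 CPM in the library labelled PI_PC 4, and the library labelled C_PC 4 was just below PI_PC 2. Its log2 fold change was -1.17 ± 0.177 (SE), edgeR adjusted p = 0.00683 under the labels.

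A few genes of starch breakdown and sugar transport fell in both fits, 3 of 32 tested starch and trehalose enzymes and 1 of 49 sugar transport and sucrose genes. Beta-amylases release maltose from leaf starch. LOC101253815, a chloroplast beta-amylase 3 (chromosome 8, 61638999 to 61642414, plus strand), had 726, 817 and 529.8 CPM in C_PC 1 to 3, 554 CPM in the library labelled C_PC 4, 545, 375 and 374 CPM in PI_PC 1 to 3 and 381 CPM in the library labelled PI_PC 4. PI_PC 1 lay just above C_PC 3, so the groups overlapped, and the log2 fold change was -0.65 ± 0.131 (SE), edgeR adjusted p = 0.0284 under the labels. The second beta-amylase, bmy3 (chromosome 1, 76364333 to 76367265, plus strand), had 2292, 2261 and 1736 CPM in C_PC 1 to 3 and 1526 CPM in the library labelled C_PC 4. Under the solar cell filter it had 1419, 1466 and 1260.1 CPM in PI_PC 1 to 3 and 1058 CPM in the library labelled PI_PC 4. All 4 PI_PC libraries lay below all 4 C_PC libraries, and the log2 fold change was -0.59 ± 0.132 (SE), edgeR adjusted p = 0.0433 under the labels, and -0.61 ± 0.127 (SE), edgeR adjusted p = 0.00101 without the 2 libraries. In the fit of the 6 libraries alone neither passed, with edgeR adjusted p = 0.1 and 0.092.

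LOC101263696, a trehalose-phosphate phosphatase J that removes the sugar signal trehalose 6-phosphate (chromosome 4, 53378543 to 53381511, minus strand), had 47.4, 41.995 and 44.4 CPM in C_PC 1 to 3, 42.1 CPM in the library labelled C_PC 4, 35.6, 30.6 and 24.9 CPM in PI_PC 1 to 3 and 22.2 CPM in the library labelled PI_PC 4. The library labelled C_PC 4 lay with the other controls and the library labelled PI_PC 4 was the lowest of all. On the log2 scale the fold change was -0.63 ± 0.124 (SE), edgeR adjusted p = 0.0269 under the labels, and -0.56 ± 0.134 (SE), edgeR adjusted p = 0.00298 without the 2 libraries. Over the starch and trehalose list 9 of 32 tested members fell without the 2 libraries, and 0 rose in either fit. The 9 were 28.1% of the tested members, against 15.6% lower over all genes tested. In the fit of the 6 libraries alone 0 of 31 fell, against 357 of 14875 over all genes tested.

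LOC101265012, described as the sugar exporter SWEET10 (chromosome 3, 61379807 to 61381945, minus strand), had 51.7, 53.1 and 51.8 CPM in C_PC 1 to 3 and 28.5 CPM in the library labelled C_PC 4. Plants beneath the filter had 21.6, 15.6 and 19.5 CPM in PI_PC 1 to 3 and 28.3 CPM in the library labelled PI_PC 4. C_PC 1 to 3 were close together, and the library labelled C_PC 4 was barely above the library labelled PI_PC 4, so that the groups only just did not overlap. This gave a log2 fold change of -1.12 ± 0.208 (SE), edgeR adjusted p = 0.0235 under the labels, and -1.47 ± 0.197 (SE), edgeR adjusted p = 2.91e-05 without the 2 libraries. In the list of sugar transport and sucrose enzymes it was the 1 member of 49 that passed in both fits, and without the 2 libraries 12 fell and 5 rose. The 12 and 5 were 24.5% lower and 10.2% higher, against 15.6% and 13.3% over all genes tested. The fit of the 6 libraries alone did not show this excess of falls: 2 of 47 fell and 3 rose. Over all genes 357 fell and 341 rose of 14875 in that fit.

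Single transporters of nitrate, sulfate and potassium also fell in both fits. Of 38 tested sulfate genes 1 fell under the labels, and 11 fell and 4 rose without the 2 libraries. The 11 and 4 were 28.9% lower and 10.5% higher, against 15.6% and 13.3% over all genes tested. In the fit of the 6 libraries alone 2 of 35 fell and 1 rose, against 357 and 341 of 14875 over all genes tested. LOC101264062, described as sulfate transporter 3.1 (chromosome 9, 63925689 to 63934213, minus strand), had 62.6, 84.3 and 47.7 CPM in C_PC 1 to 3, 34.8 CPM in the library labelled C_PC 4, 22.9, 26.2 and 22.2 CPM in PI_PC 1 to 3 and 30.9 CPM in the library labelled PI_PC 4. The groups of 4 did not overlap, and the log2 fold change was -1.17 ± 0.220 (SE), edgeR adjusted p = 0.0267 under the labels, and -1.45 ± 0.224 (SE), edgeR adjusted p = 8.14e-05 without the 2 libraries. LOC101253972, in the nitrate and peptide transporter family as NPF6.4 (chromosome 12, 645638 to 648349, plus strand), had 342, 477 and 307 CPM in C_PC 1 to 3 and 234 CPM in the library labelled C_PC 4. Beneath the filter the values were 193, 182 and 127 CPM in PI_PC 1 to 3 and 190.1 CPM in the library labelled PI_PC 4. Every PI_PC library was below every C_PC library, and the log2 fold change was -0.97 ± 0.198 (SE), edgeR adjusted p = 0.0284 under the labels.

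LOC101250924, an NPF7.3 gene whose Arabidopsis namesake loads nitrate into the xylem (chromosome 1, 80039508 to 80043684, minus strand), had 202, 272 and 139 CPM in C_PC 1 to 3, 125 CPM in the library labelled C_PC 4, 114, 113 and 69.5 CPM in PI_PC 1 to 3 and 86.5 CPM in the library labelled PI_PC 4. The groups of 4 did not overlap, and the log2 fold change was -0.95 ± 0.212 (SE), edgeR adjusted p = 0.0433 under the labels. A gene with the same description, LOC101257685, went the other way without the 2 libraries (log2 fold change 1.44, edgeR adjusted p = 0.000381). Over the nitrogen list, 2 of 77 tested members fell in both fits, and 30 fell and 10 rose without the 2 libraries. Among the 30 was nii1, the nitrite reductase of the chloroplast, with 164, 172 and 163 CPM in C_PC 1 to 3 and 37.6 CPM in the library labelled C_PC 4. In the filter group there were 90.9, 32.6 and 27.6 CPM in PI_PC 1 to 3 and 163 CPM in the library labelled PI_PC 4. For this gene the library labelled C_PC 4 lay within the range of PI_PC 1 to 3 and the library labelled PI_PC 4 within that of C_PC 1 to 3, and its edgeR adjusted p was 0.00014 without them and 0.363 with them.

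Among potassium channels, LOC101263942, similar to the phloem channel AKT2/3 (chromosome 10, 13686141 to 13692759, plus strand), had 33.8, 49.4 and 39.9 CPM in C_PC 1 to 3, 24.97 CPM in the library labelled C_PC 4, 23.4, 22.9 and 20.1 CPM in PI_PC 1 to 3 and 23.5 CPM in the library labelled PI_PC 4. The groups of 4 did not overlap, and the log2 fold change was -0.72 ± 0.146 (SE), edgeR adjusted p = 0.0284 under the labels. LOC101248180, similar to the outward channel SKOR (chromosome 3, 61755895 to 61766407, plus strand), had 12.1, 13.97 and 14.8 CPM in C_PC 1 to 3 and 6.43 CPM in the library labelled C_PC 4. Under the solar cell filter it had 7.57, 5.55 and 3.39 CPM in PI_PC 1 to 3 and 6.66 CPM in the library labelled PI_PC 4. Here the library labelled C_PC 4 lay within the PI_PC range, and the log2 fold change was -1.03 ± 0.210 (SE), edgeR adjusted p = 0.0284 under the labels. In the potassium list, which was drawn up after values had been seen, 2 of 27 tested members fell and 0 rose under the labels, and 6 fell and 2 rose without the 2 libraries. The 6 and 2 were 22.2% lower and 7.41% higher, against 15.6% and 13.3% over all genes tested.

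Clock and photoperiod genes followed. REVEILLE factors are MYB-like proteins of the morning part of the circadian clock. LOC101261079, described as REVEILLE 1 (chromosome 2, 31082630 to 31085427, minus strand), had 323, 272 and 281 CPM in C_PC 1 to 3, 131 CPM in the library labelled C_PC 4, 155, 114 and 81.6 CPM in PI_PC 1 to 3 and 149 CPM in the library labelled PI_PC 4. C_PC 1 to 3 lay above all PI_PC libraries, and the library labelled C_PC 4 was inside the PI_PC range. The log2 fold change was -1.01 ± 0.195 (SE), edgeR adjusted p = 0.0267 under the labels, and -1.33 ± 0.167 (SE), edgeR adjusted p = 1.43e-05 without the 2 libraries. REVEILLE 7, LOC101255972, had a similar order and passed only without the 2 libraries (log2 fold change -0.96, edgeR adjusted p = 1.35e-05, and 0.0599 under the labels).

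LOC101267825, a B-box protein named CONSTANS-LIKE 10 (chromosome 7, 58417009 to 58425339, plus strand), had 56.7, 57.3 and 50.9 CPM in C_PC 1 to 3 and 35.4 CPM in the library labelled C_PC 4. Plants beneath the filter had 32.8, 38.7 and 30.7 CPM in PI_PC 1 to 3 and 33.96 CPM in the library labelled PI_PC 4. PI_PC 2 was above the library labelled C_PC 4 but below the other controls, and the log2 fold change was -0.55 ± 0.118 (SE), edgeR adjusted p = 0.0358 under the labels. Of 31 clock genes tested without the 2 libraries, 10 fell (32.3%) and 2 rose (6.45%), against 15.6% and 13.3% over all genes tested. The 2 that rose were GIGANTEA, LOC101255788 (log2 fold change 1.41, edgeR adjusted p = 0.000653), and an APRR1 response regulator, LOC101259163 (log2 fold change 0.41, edgeR adjusted p = 0.0234). A gene of the same description, LOC101259425, was among the 10 that fell.

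**Figure D3:**
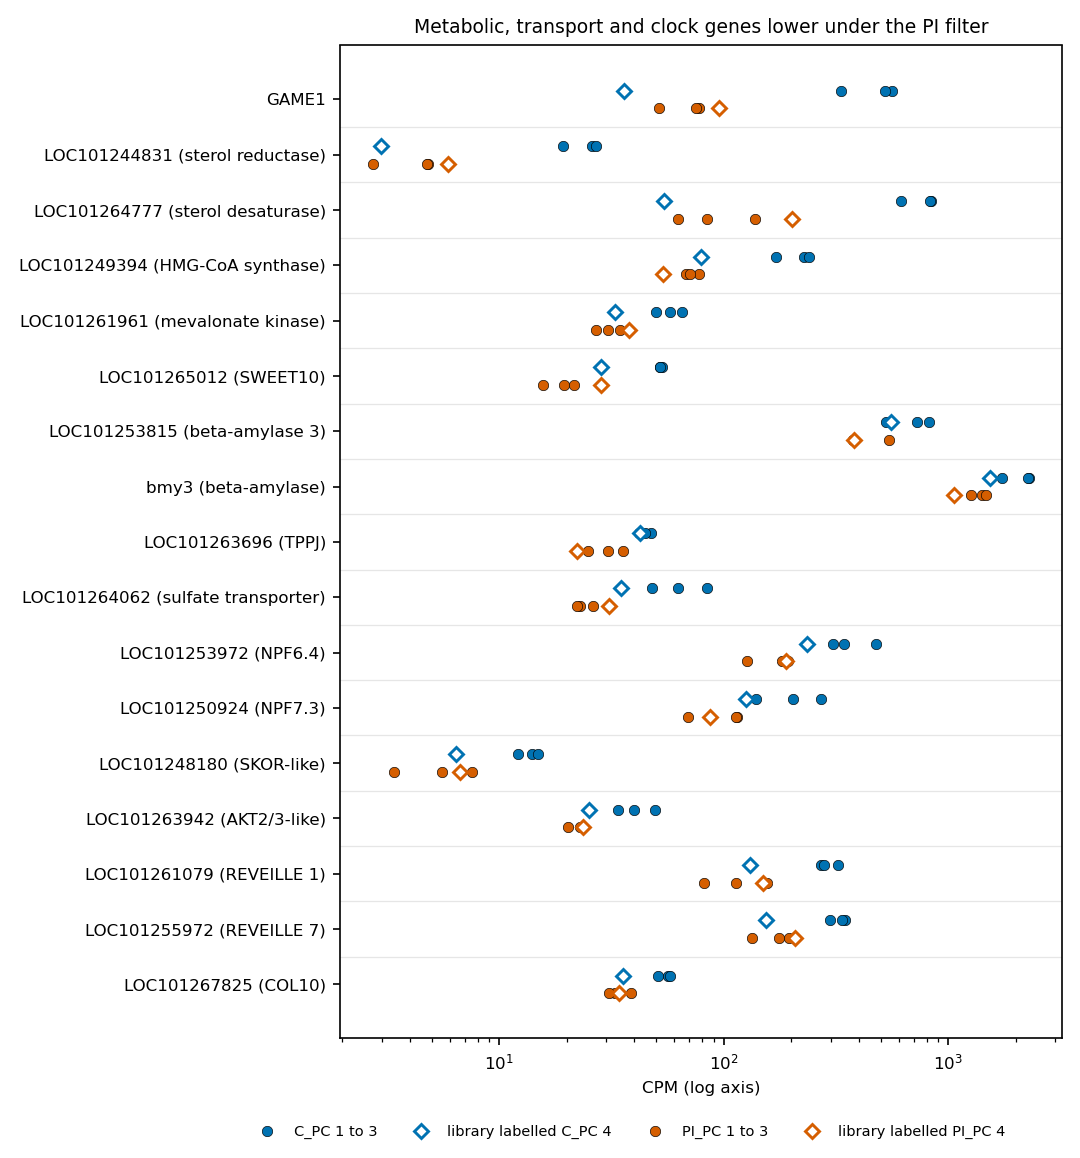
Levels (CPM, log axis) in the 8 libraries of sterol, sugar, transport and clock genes lower beneath the PTB7-Th:IEICO-4F filter. Circles are C_PC 1 to 3 and PI_PC 1 to 3 and open diamonds the libraries labelled C_PC 4 and PI_PC 4. LOC101264777, LOC101261961 and LOC101255972 passed only without those 2 libraries and the rest passed in both fits.

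Other genes that held in both fits act in growth, plastid signalling and immunity. LOC101252392, described as LAZY 1, a gene of shoot gravitropism, had 18.4, 22.7 and 21.8 CPM in C_PC 1 to 3, 7.57 CPM in the library labelled C_PC 4, 10.1, 5.43 and 4.38 CPM in PI_PC 1 to 3 and 9.07 CPM in the library labelled PI_PC 4. The library labelled C_PC 4 lay between PI_PC 4 and PI_PC 2, and the log2 fold change was -1.28 ± 0.264 (SE), edgeR adjusted p = 0.0298 under the labels. LOC101257460, named SHORT HYPOCOTYL IN WHITE LIGHT 1 for its role in Arabidopsis seedlings, fell with groups that did not overlap (log2 fold change -0.64 ± 0.134 (SE), edgeR adjusted p = 0.0319). The chloroplast sensor kinase LOC101244485, which in Arabidopsis reports plastid redox state to plastid gene transcription, fell with a log2 fold change of -0.53 ± 0.115 (SE), edgeR adjusted p = 0.0358. Homeobox gene LOC101261052, knotted-1-like 3, is the 1 shoot meristem marker of 4 tested that passed in both fits (log2 fold change -0.48, edgeR adjusted p = 0.0433).

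Hop-interacting protein THI135, LOC101055536, fell (log2 fold change -0.55, edgeR adjusted p = 0.029), as did the transporter gene DETOXIFICATION 16-like, LOC101253179 (-0.54, edgeR adjusted p = 0.0299) and SODIUM POTASSIUM ROOT DEFECTIVE 2, LOC101261297 (-0.72, edgeR adjusted p = 0.0284). The remaining falls were the protein kinase LOC101244281 at 0.119 to 1.53 CPM, the genes without a described function LOC101244860, LOC101250649 and LOC101264030, and the subtilisin-like protease LOC101253643. The protease had 0.298 to 0.818 CPM in C_PC and no count in PI_PC 1, 3 and 4, and no fold is given for it.

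Among the rises, the receptor-like protein EIX1, LOC101256986, which belongs to a tomato receptor pair for fungal xylanase, had 4.98, 4.61 and 5.26 CPM in C_PC 1 to 3 and 10.1 CPM in the library labelled C_PC 4. Beneath the filter the values were 8.51, 12.7 and 16.5 CPM in PI_PC 1 to 3 and 13.4 CPM in the library labelled PI_PC 4. For this gene the library labelled C_PC 4 was above PI_PC 1, and the log2 fold change was 1.03 ± 0.220 (SE), edgeR adjusted p = 0.0358 under the labels. An EFR-type receptor kinase, LOC101246110, a class that in Arabidopsis senses bacterial elongation factor, rose with a log2 fold change of 0.91 ± 0.204 (SE), edgeR adjusted p = 0.0433. An NDR1-like gene, LOC101251120, rose with a log2 fold change of 0.93 ± 0.195 (SE), edgeR adjusted p = 0.0319. The probable rRNA-processing gene EBP2, LOC101264660, rose with a log2 fold change of 1.26 ± 0.282 (SE), edgeR adjusted p = 0.0433. The universal stress protein PHOS32, LOC101265425, had 14.1, 9.81 and 13.6 CPM in C_PC 1 to 3, 18.9 CPM in the library labelled C_PC 4, 19.6, 43.8 and 57.6 CPM in PI_PC 1 to 3 and 27.4 CPM in the library labelled PI_PC 4. Its groups of 4 did not overlap, and the log2 fold change was 1.39 ± 0.305 (SE), edgeR adjusted p = 0.0411 under the labels. A chitinase-like protein 1 gene, LOC101252859, the SKP1-interacting partner 15 gene LOC101262613 and LOC543814, which has no described function, rose by log2 fold changes of 0.63, 0.57 and 1.22 (edgeR adjusted p = 0.0358, 0.0267 and 0.0269).

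By the rule that at least 1 member passes in both fits and both list medians have its sign, 10 of 47 fixed gene lists held in both. A single member is enough for this rule, and 0.310% of all genes passed in both fits, so the count of lists says little about whole lists. These were small heat shock proteins, HSP70, HSP90 and HSP100 chaperones, mevalonate and sterol enzymes, clock and photoperiod genes, sugar transport, starch and trehalose enzymes, sulfate genes, nitrogen genes, antioxidant enzymes and the shoot meristem markers. Of these, sugar transport, sulfate genes, antioxidant enzymes and shoot meristem markers each held through 1 member. For antioxidant enzymes the call rests on the thioredoxin-like gene LOC101244843 (log2 fold change -1.03, edgeR adjusted p = 0.0356), while 28 of 140 tested members rose and 28 fell without the 2 libraries.

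Photosynthesis lists gave 0 calls under the labels and many falls without the 2 libraries. Chlorophyll a/b-binding proteins form the antennae that collect light for the photosystems. Of 31 tested members 27 fell and 0 rose without the 2 libraries, with a median log2 fold change of -1.26, and the median was -0.40 under the labels. The corresponding counts were 33 of 37 lower for photosystem cores and electron transport, 19 of 22 lower and 1 higher for Calvin cycle enzymes, 16 of 19 lower and 1 higher for chlorophyll biosynthesis and 13 of 22 lower for the carotenoid pathway. Over all genes tested without the 2 libraries 15.6% fell and 13.3% rose. In the fit of the 6 libraries alone, 3 of 30, 1 of 37, 0 of 22, 1 of 19 and 1 of 22 members of these lists fell. Over all genes 357 of 14875 fell in that fit, so the photosystem and Calvin cycle counts were near or below the general share. All 5 mesophyll markers tested fell as well without the 2 libraries, and their part in these counts was not tested.

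**Figure D4:**
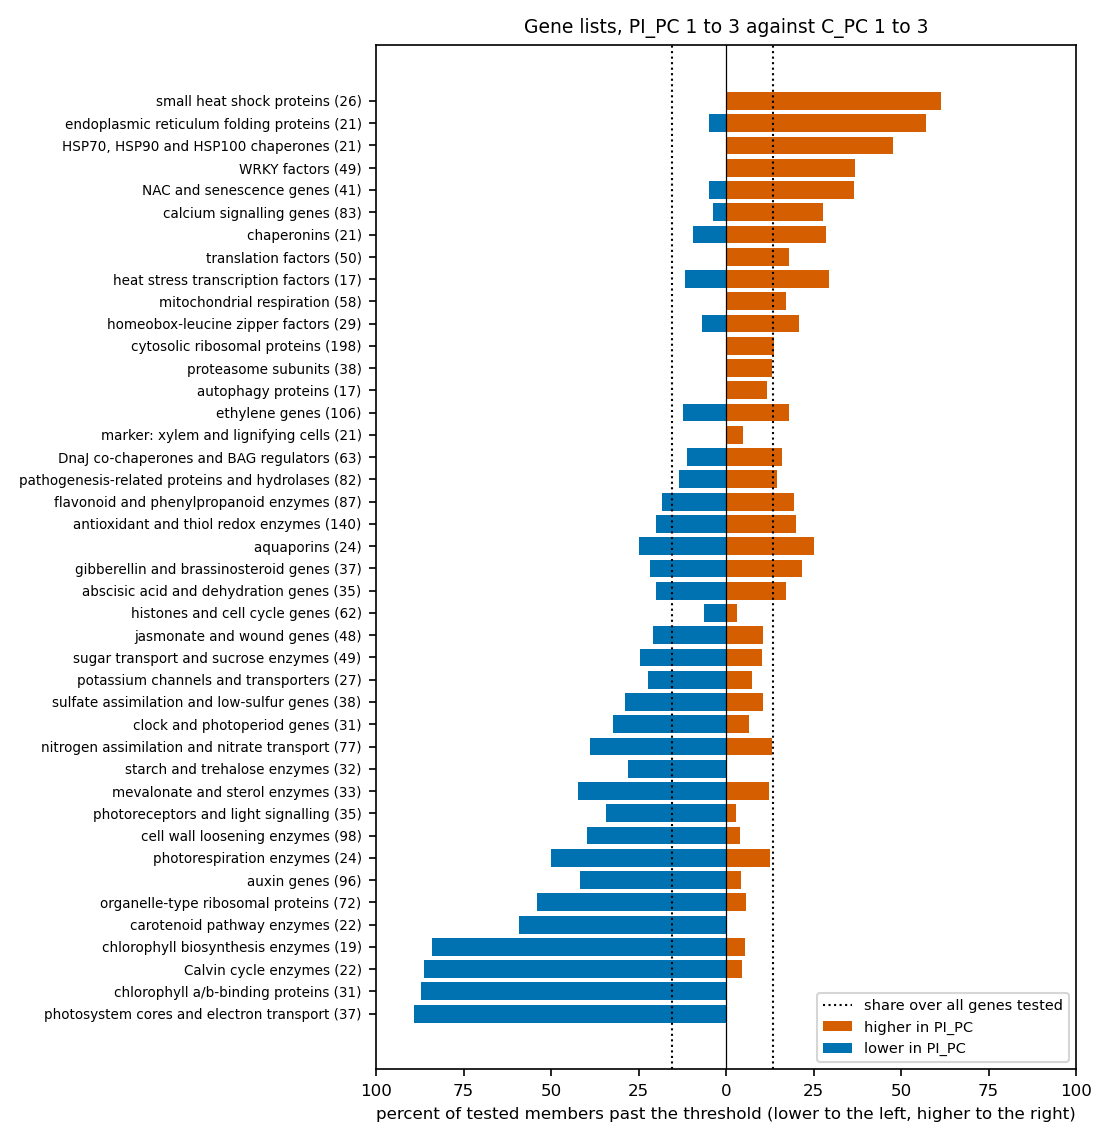
Percent of the tested members of each gene list (number tested in brackets, lists with at least 15) that passed the threshold without the 2 libraries, higher in PI_PC to the right and lower to the left. Dotted lines mark the shares over all genes tested, 13.3% higher and 15.6% lower. Photosynthesis lists extend farthest to the left and the chaperone and endoplasmic reticulum folding lists farthest to the right.

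Cab-1D, an antenna gene (chromosome 2, 41087491 to 41088441, plus strand) had 247, 201 and 261 CPM in C_PC 1 to 3 and 1.55 CPM in the library labelled C_PC 4. In the filter group there were 20.6, 2.92 and 1.81 CPM in PI_PC 1 to 3 and 336 CPM in the library labelled PI_PC 4. Both libraries labelled replicate 4 stood on the far side of their group: C_PC 4 was lower than every PI_PC library, and PI_PC 4 was higher than every control. Its log2 fold change was -4.83 ± 0.885 (SE), edgeR adjusted p = 0.000342 without the 2 libraries, and -0.98 ± 1.07 (SE), edgeR adjusted p = 0.709 under the labels. CAB5 (chromosome 12, 693012 to 694548, minus strand) had 257, 217 and 280.2 CPM in C_PC 1 to 3, 8.88 CPM in the library labelled C_PC 4, 60.2, 14.4 and 9.52 CPM in PI_PC 1 to 3 and 216 CPM in the library labelled PI_PC 4. Its order of libraries was similar except that PI_PC 4 lay just below C_PC 2, and its log2 fold change was -3.17 ± 0.564 (SE), edgeR adjusted p = 0.000263 without the 2 libraries. Antenna genes include near-identical copies, and levels of single members are uncertain.

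LHCP, the CP24 antenna of photosystem II, had 2625, 1985 and 2379 CPM in C_PC 1 to 3 and 588 CPM in the library labelled C_PC 4. Under the solar cell filter it had 1375, 574 and 609 CPM in PI_PC 1 to 3 and 2893 CPM in the library labelled PI_PC 4. PI_PC 1 lay between the other PI_PC libraries and the controls, and PI_PC 4 was the highest of all 8. On the log2 scale the fold change was -1.45 ± 0.256 (SE), edgeR adjusted p = 0.000239 without the 2 libraries, and -0.47 ± 0.373 (SE), edgeR adjusted p = 0.58 under the labels. LOC101266713, the A subunit of plastid glyceraldehyde-3-phosphate dehydrogenase in the Calvin cycle, had 6855, 5892 and 6862 CPM in C_PC 1 to 3, 2124 CPM in the library labelled C_PC 4, 3967, 1895 and 1687 CPM in PI_PC 1 to 3 and 6828 CPM in the library labelled PI_PC 4. PI_PC 4 lay within the range of C_PC 1 to 3, and C_PC 4 between PI_PC 2 and PI_PC 1. This gave a log2 fold change of -1.38 ± 0.247 (SE), edgeR adjusted p = 0.000279 without the 2 libraries.

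LOC101244717, a light-dependent protochlorophyllide oxidoreductase of chlorophyll synthesis, had 125, 110.1 and 152 CPM in C_PC 1 to 3 and 19.9 CPM in the library labelled C_PC 4. Plants beneath the filter had 61.6, 17.01 and 19.03 CPM in PI_PC 1 to 3 and 172 CPM in the library labelled PI_PC 4. PI_PC 4 was again above all controls and C_PC 4 just above PI_PC 2 and 3, and the log2 fold change was -1.99 ± 0.380 (SE), edgeR adjusted p = 0.000496 without the 2 libraries. Over the 27 antenna genes called, the library labelled C_PC 4 was nearer to PI_PC 1 to 3 in 27 and the library labelled PI_PC 4 in 0. Over the 33 photosystem genes called the numbers were 33 and 0. Over all 4646 genes called the shares were 93.2% and 27.5%, so the counts for the library labelled C_PC 4 were near the general share.

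Auxin, cell wall and organelle ribosome genes had more falls than rises in the same comparison. Of 96 auxin genes tested 40 fell and 4 rose, of 98 cell wall loosening enzymes 39 fell and 4 rose, and of 72 organelle-type ribosomal proteins 39 fell and 4 rose, with 0 calls in any of the 3 lists under the labels. The general shares without the 2 libraries were 15.6% lower and 13.3% higher. In the fit of the 6 libraries alone 7 of 80, 8 of 93 and 0 of 71 fell, against 357 of 14875 over all genes tested. Other lists tied to growth were not one-sided: gibberellin and brassinosteroid genes had 8 of 37 higher and 8 lower, and histones and cell cycle genes 2 of 62 higher and 4 lower. PIN3, an auxin exporter, had 9.51, 8.62 and 9.79 CPM in C_PC 1 to 3, 2.20 CPM in the library labelled C_PC 4, 3.48, 1.91 and 1.17 CPM in PI_PC 1 to 3 and 7.83 CPM in the library labelled PI_PC 4. Here the library labelled C_PC 4 was within the range of PI_PC 1 to 3 and PI_PC 4 just below C_PC 1 to 3, and the log2 fold change was -2.10 ± 0.306 (SE), edgeR adjusted p = 5.22e-05 without the 2 libraries. The expansin exp11, which loosens cell walls, had 157, 138 and 189 CPM in C_PC 1 to 3 and 28.7 CPM in the library labelled C_PC 4. Beneath the filter the values were 69.9, 35.3 and 30.8 CPM in PI_PC 1 to 3 and 206 CPM in the library labelled PI_PC 4. PI_PC 4 was the highest and C_PC 4 the lowest of all, and the log2 fold change was -1.84 ± 0.263 (SE), edgeR adjusted p = 4.67e-05 without the 2 libraries.

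Several lists tied to stress and senescence had more rises than falls. WRKY factors, which regulate defence and stress genes, gave 18 of 49 higher and 0 lower without the 2 libraries, endoplasmic reticulum folding proteins 12 of 21 higher and 1 lower, NAC and senescence genes 15 of 41 higher and 2 lower, and calcium signalling genes 23 of 83 higher and 3 lower. In the fit of the 6 libraries alone 5 of 41, 0 of 19, 7 of 37 and 2 of 78 members of these lists rose. Over all genes 341 of 14875 rose in that fit, so the calcium signalling count was near the general share. Other stress lists had no such excess of rises: pathogenesis-related proteins had 12 of 82 higher and 11 lower, abscisic acid and dehydration genes 6 of 35 higher and 7 lower, and jasmonate and wound genes 5 of 48 higher and 10 lower. Cytosolic ribosomal proteins had 27 of 198 higher and 0 lower, a share of rises near the 13.3% of all genes. LOC101243805, a WRKY40 gene (chromosome 8, 56470295 to 56472414, plus strand), had 3.47, 2.68 and 4.46 CPM in C_PC 1 to 3, 34.9 CPM in the library labelled C_PC 4, 10.9, 46.7 and 91.4 CPM in PI_PC 1 to 3 and 12.7 CPM in the library labelled PI_PC 4. PI_PC 3 was the highest and both libraries labelled replicate 4 lay above C_PC 1 to 3. The log2 fold change was 3.80 ± 0.518 (SE), edgeR adjusted p = 3.18e-05 without the 2 libraries, and 1.82 ± 0.619 (SE), edgeR adjusted p = 0.162 under the labels.

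SGR1, which drives chlorophyll breakdown in senescing leaves, had 46.2, 57.4 and 41.1 CPM in C_PC 1 to 3 and 269 CPM in the library labelled C_PC 4. In the filter group there were 117, 233 and 237 CPM in PI_PC 1 to 3 and 54.3 CPM in the library labelled PI_PC 4. The library labelled C_PC 4 was the highest of all and PI_PC 4 was within the control range, and the log2 fold change was 2.01 ± 0.278 (SE), edgeR adjusted p = 3.21e-05 without the 2 libraries. ACO1, the last enzyme of ethylene synthesis, had 116, 161 and 80.5 CPM in C_PC 1 to 3, 1236 CPM in the library labelled C_PC 4, 194, 693 and 940.1 CPM in PI_PC 1 to 3 and 173 CPM in the library labelled PI_PC 4. For this gene the library labelled C_PC 4 was again the highest, and the log2 fold change was 2.35 ± 0.434 (SE), edgeR adjusted p = 0.00037 without the 2 libraries. LOC101265819, the endoplasmic reticulum chaperone endoplasmin, had 264, 275 and 274 CPM in C_PC 1 to 3 and 808 CPM in the library labelled C_PC 4. Under the solar cell filter it had 393, 599 and 1127 CPM in PI_PC 1 to 3 and 473 CPM in the library labelled PI_PC 4. C_PC 1 to 3 were close together, all PI_PC libraries were above them, the library labelled C_PC 4 lay between PI_PC 2 and PI_PC 3, and the log2 fold change was 1.38 ± 0.261 (SE), edgeR adjusted p = 0.000473 without the 2 libraries.

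LOC101259987, a cytochrome P450 704C1-like gene (chromosome 1, 85565849 to 85568489, minus strand), had 2.11, 5.20 and 0.365 CPM in C_PC 1 to 3, 127 CPM in the library labelled C_PC 4, 21.8, 111 and 76.2 CPM in PI_PC 1 to 3 and 1.17 CPM in the library labelled PI_PC 4. Here the library labelled C_PC 4 was the highest and PI_PC 4 lay with the controls, so the log2 fold change was 4.76 ± 0.865 (SE), edgeR adjusted p = 0.000316 without the 2 libraries and 0.63 ± 1.02 (SE), edgeR adjusted p = 0.816 under the labels. GID1, a gibberellin receptor, had 41.5, 52.03 and 38.4 CPM in C_PC 1 to 3, 139 CPM in the library labelled C_PC 4, 85.3, 141 and 171 CPM in PI_PC 1 to 3 and 22.98 CPM in the library labelled PI_PC 4, with PI_PC 4 the lowest of all 8. Its log2 fold change was 1.59 ± 0.216 (SE), edgeR adjusted p = 3.18e-05 without the 2 libraries.

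**Figure D5:**
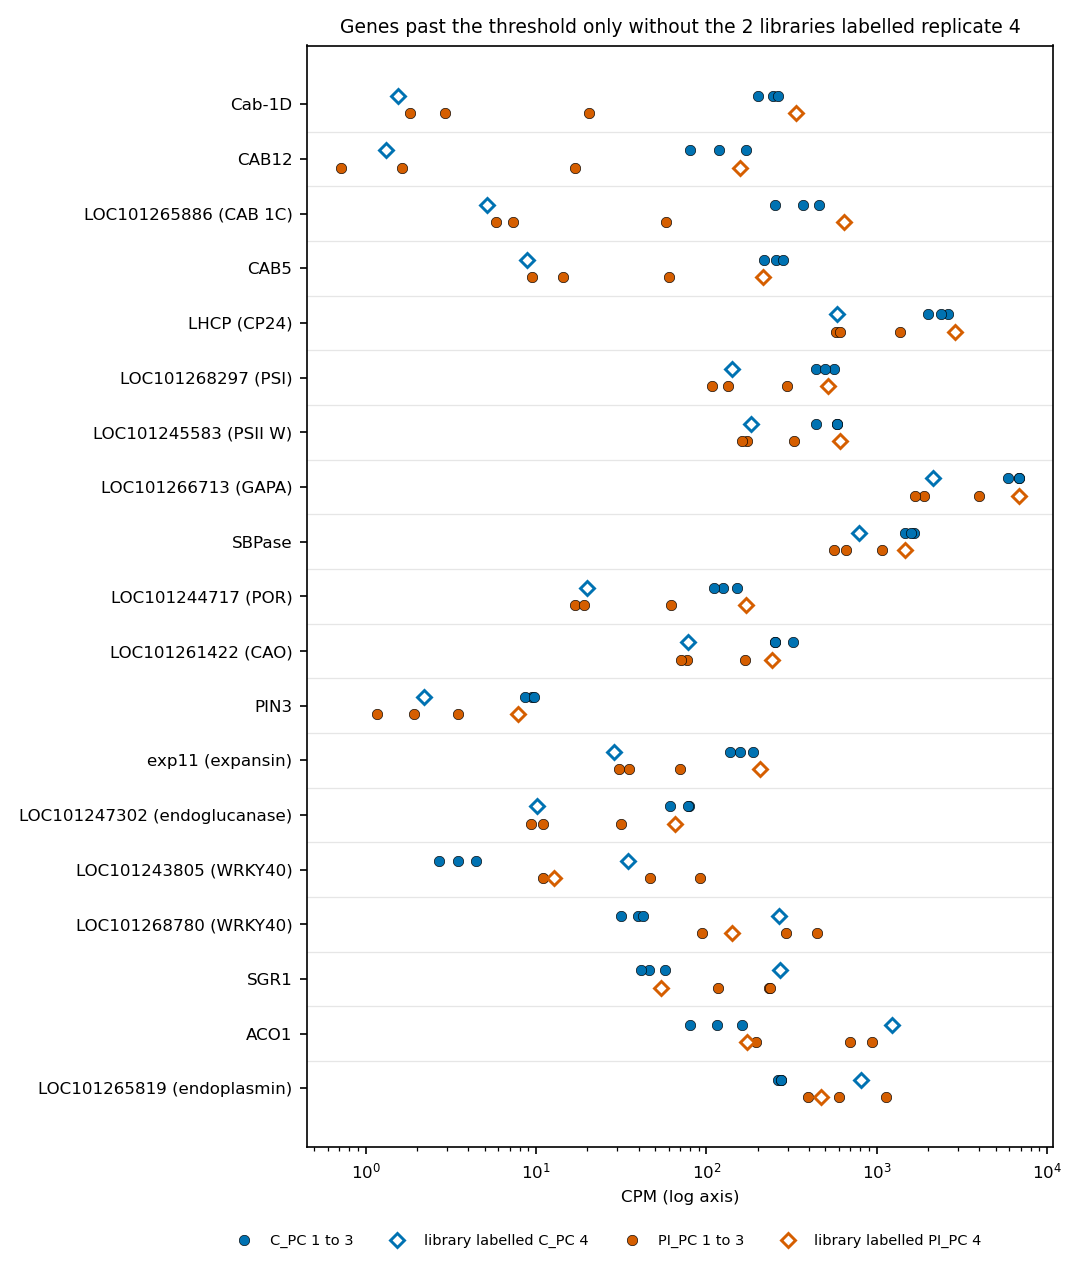
Levels (CPM, log axis) in the 8 libraries of photosynthesis, growth and stress genes that passed the threshold only without the 2 libraries labelled replicate 4. Circles are C_PC 1 to 3 and PI_PC 1 to 3, and open diamonds are the libraries labelled C_PC 4 and PI_PC 4. For the photosynthesis genes the C_PC 4 diamond lies at or near the PI_PC circles and the PI_PC 4 diamond at or near the C_PC circles.

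PI_PC was then set against the other blends at equal flux. Against FI_PC, 799 genes were higher (4.93%) and 861 lower (5.32%) under the labels, and 1563 (9.70%) and 1530 (9.49%) without the 2 libraries. Against FP_PC, 342 were higher (2.11%) and 356 lower (2.20%) under the labels, and 1618 (10.04%) and 1803 (11.2%) without the 2 libraries. These contrasts and PI_PC against C_PC share the PI_PC libraries. Of the 50 genes that held in both fits, 43 passed in the same direction against FI_PC and 42 against FP_PC under the labels, and 45 and 48 without the 2 libraries, with 0 in the opposite direction.

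LOC101254946 had 16.2 to 49.8 CPM in FI_PC and 8.61 to 23.8 CPM in FP_PC, all below the 4 PI_PC libraries. The log2 difference was 2.17 ± 0.479 (SE), edgeR adjusted p = 0.00466 against FI_PC and 3.17 ± 0.503 (SE), edgeR adjusted p = 0.0019 against FP_PC, both under the labels. GAME1 had 525 to 1155 CPM in FI_PC, and 167 to 359.9 CPM in FP_PC, all above every PI_PC library. Under the labels the difference was -3.40 ± 0.529 (SE), edgeR adjusted p = 0.000196 against FI_PC and -1.68 ± 0.496 (SE), edgeR adjusted p = 0.0501 against FP_PC, which just missed the threshold. Without the 2 libraries the difference from FP_PC was -1.81 ± 0.389 (SE), edgeR adjusted p = 0.00191.

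For CONSTANS-LIKE 10, LOC101267825, FI_PC had 86.2 to 105 CPM and FP_PC 35.3 to 40.6 CPM. PI_PC was lower than FI_PC (log2 difference -1.50 ± 0.120 (SE), edgeR adjusted p = 1.47e-08), and the difference from FP_PC did not pass (log2 difference -0.15 ± 0.118 (SE), edgeR adjusted p = 0.476). Antenna gene Cab-1D had 2.92 to 21.4 CPM in FI_PC, close to the range of PI_PC 1 to 3, and 49.5 to 358 CPM in FP_PC. Without the 2 libraries its log2 difference was -0.47 ± 0.774 (SE), edgeR adjusted p = 0.727 against FI_PC, and -4.51 ± 0.857 (SE), edgeR adjusted p = 0.000805 against FP_PC.

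Finally the effect of the PTB7-Th:IEICO-4F filter at equal flux was tested against its effect at equal height, as PI_PC minus C_PC less PI_HC minus C_HC. Under the labels 65 genes had a higher effect at equal flux (0.401%) and 70 a lower one (0.432%), and without the 2 libraries 1294 (8.03%) and 1519 (9.42%). The 50 genes were chosen by PI_PC minus C_PC, which is part of this contrast, so agreement in direction is favoured by the choice. Of the 50 genes, 13 passed this test in the direction of their change at equal flux under the labels and 37 without the 2 libraries, and 1, LOC101267825, passed in the opposite direction in both. For LOC101267825 PI_HC had 29.8 to 34.1 CPM against 70.5 to 86.7 CPM in C_HC, so it was also lower beneath this filter at equal height. GAME1 was lower there too, with 193 to 241 CPM in PI_HC against 467 to 676 CPM in C_HC. Under the labels its log2 difference between the experiments was -0.99 ± 0.709 (SE), edgeR adjusted p = 0.55. Without the 2 libraries it was -1.51 ± 0.537 (SE), edgeR adjusted p = 0.0511, and neither passed.

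LOC101254946 had 8.61 to 11.99 CPM in PI_HC and 6.75 to 19.9 CPM in C_HC, which overlap. Its effect at equal flux exceeded that at equal height by a log2 difference of 2.98 ± 0.721 (SE), edgeR adjusted p = 0.0446 under the labels, and of 3.19 ± 0.760 (SE), edgeR adjusted p = 0.00599 without the 2 libraries. The NPF6.4 gene LOC101253972 had 236 to 440.4 CPM in PI_HC and 216 to 255 CPM in C_HC, and the difference was -1.45 ± 0.288 (SE), edgeR adjusted p = 0.0151 under the labels. The sulfate transporter LOC101264062 had 57.4 to 78.1 CPM in PI_HC and 46.4 to 62.01 CPM in C_HC, and the difference was -1.37 ± 0.317 (SE), edgeR adjusted p = 0.0382 under the labels.

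Among photosynthesis genes the difference rested on which libraries were kept. Cab-1D had 98.9 to 321 CPM in PI_HC and 16.7 to 66.6 CPM in C_HC, so all PI_HC libraries were above all C_HC libraries. The log2 difference between the experiments was -7.06 ± 1.12 (SE), edgeR adjusted p = 0.000347 without the 2 libraries, and -3.19 ± 1.58 (SE), edgeR adjusted p = 0.347 under the labels. Of the 31 antenna genes tested, 24 had a lower effect at equal flux than at equal height without the 2 libraries and 0 a higher one, and of 26 small heat shock genes 15 had a higher effect and 0 a lower one. These counts use the same PI_PC and C_PC libraries as the comparison at equal flux and are not independent of it.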

How the data were processed

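RNA of single tomato leaves was sequenced as polyA libraries on DNBSEQ, and reads were processed with FastQC, HISAT2, featureCounts and DESeq2, per the submitters' processing notes. The deposited values are counts per exon record, made with featureCounts 2.0.1 on the SL3.0 RefSeq annotation in reverse-stranded paired mode, per the file headers. A read pair that fits records of several transcripts is not counted in that mode: 58.5% of exon records share coordinates with another and hold no counts, so genes with several transcripts are undercounted. Here the counts were summed per gene name, and records without a gene name (0.0346% of the counts) were left out. edgeR 4.0.16 in R 4.3.3 (TMM scaling, filterByExpr by group, quasi-likelihood test, Benjamini-Hochberg threshold 0.05) was fitted to all 31 libraries and to 29 without the libraries labelled C_PC 4 and PI_PC 4. CPM use the TMM factors, and SE is the size of the log2 fold change over the root of F. The 8 libraries held 14572814 to 15094631 counts, and a floor of 3 counts covers counting error only. Since nothing says how plants were randomised, p-values measure the spread between individual plants. In data simulated with 200 genes changed by a fold of 2 under the labelled layout, the fit recovered 113 of the 198 tested, with 4 false calls. In the 29-library layout it recovered 93 of 198, with 5 false calls. The simulated counts were drawn independently for each gene and library. No simulated library stood apart from its group as the libraries labelled C_PC 4 and PI_PC 4 do. These figures therefore do not give the recovery or the false calls of the real comparison.

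Genes were named by rule: the 10 largest rises and 10 largest falls past the threshold in both fits at a mean log2 CPM of at least 1, the 5 largest in each direction without the 2 libraries at a log2 CPM of at least 3 with groups that did not overlap, members of lists past the threshold in both fits, and up to 3 members per list and direction by smallest p. Other genes past the threshold in both fits were named after their values were seen. The members and the 47 gene lists were chosen with earlier results of these data known, and 2 further lists (steroidal glycoalkaloid and potassium genes) were added after seeing the data. Alternatives were other scaling, DESeq2 1.42.0, other filters, fits of the compared libraries alone, a replicate block and leaving out each library. A search for promoter motifs was not run.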

Additional observations from a re-analysis of the deposited data

Results flagged for a closer look

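Each library was compared with the other 3 of its group, and a value was marked where its gap to the nearest exceeded Dixon's 95% critical value. This marked 17 of 66 sets of 4 values, and 10 of the 17 were in the library labelled C_PC 4. Chance marks about 1 in 20 independent sets, but that rate cannot be applied here. Most sets are genes named for the size of their change, some of them for groups of 3 that did not overlap without the replicate 4 libraries, which favours marking those libraries, and the genes are not independent. The total count of C_PC 2 was 14580164, below the other 3 controls. The 10 most abundant genes held 7.03% of the counts in the library labelled C_PC 4, and 9.89% to 10.2% in the other controls.

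In the library labelled C_PC 4, the chaperone genes HSP17.4 (16.1 CPM), HSP70 (103 CPM) and LOC101256272 (2.86 CPM), the WRKY40 gene LOC101243805 (34.9 CPM), the P450 gene LOC101259987 (127 CPM), LOC101248335 (28.9 CPM) and LOC101265734 (41.5 CPM) lay far above C_PC 1 to 3. The SWEET10 gene LOC101265012 (28.5 CPM) and LOC101250649 (1.67 CPM) lay far below them. In the library labelled PI_PC 4, the antenna genes CAB12 (157 CPM), Cab-1D (336 CPM) and LOC101265886 (641 CPM), together with LOC101253698 (106 CPM) and LOC544001 (90.7 CPM), lay far above PI_PC 1 to 3. In PI_PC 3 the small heat shock gene LOC101268020 reached 25.98 CPM, against 10.5 to 13.0 CPM in the other PI_PC libraries.

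Among the 29 genes named for the size of their change, 3 differed under the labels in the effect of the filter between equal flux and equal height by edgeR. The change at equal flux, by which these genes were named, is part of that difference. The log2 difference was 2.98 for LOC101254946 (adjusted p = 0.0446), 1.63 for LOC101268020 (adjusted p = 0.0398) and -1.37 for LOC101264062 (adjusted p = 0.0382). Outside these 29, other genes of the 50 passed the same edgeR test, such as LOC101253972 (adjusted p = 0.0151) and LOC101055536 (adjusted p = 0.0361).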

How the results depend on the processing

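Under the labels the 50 calls became 345 with the DESeq2 Wald test, 77 with at least 10 counts in every library, 31 among changes of 1 or more on the log2 scale, 0 in the 8 libraries alone, 4646 without the 2 libraries labelled replicate 4, and 0 to 2395 when 1 library was left out. Without the 2 libraries the 4646 calls became 698 in the 6 libraries alone, 1743 among changes of that size, and 2294 to 6054 when 1 library was left out. The calls in both fits became 342, 77, 31 and 0 under the first 4 of these settings, and 0 to 198 when 1 library was left out. The 10 lists that held in both became 18 with the Wald test, 0 in the compared libraries alone and 0 to 14 when 1 library was left out. In their deviations from the group means, same-numbered libraries correlated at 0.383, 0.0126, -0.487 and -0.692. Both group means include a library labelled replicate 4 that stood apart, so these values cannot decide whether the replicate numbers pair the libraries. With a replicate block the labelled calls were 25, and 25 in both fits. For the other contrasts, leaving out the 2 libraries, or these and the library labelled FP_PC 4, moved PI_PC against FI_PC from 1660 to 3093 and 3076 calls, PI_PC against FP_PC from 698 to 3421 and 2787, and the difference between experiments from 135 to 2813 and 2809. Over 317 combinations of the 20 genes named by size under the labels with a setting, 202 kept direction and call, 115 lost the call and 0 reversed. The cause of these shifts was not tested.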
